A study of Mus musculus with 22 samples.

Results

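The transcription factors that set the fate of T helper cells were followed in the distal colon of mice with spontaneous chronic colitis. They are 7 genes, taken by symbol from a table of 46078 genes. Tbx21 (T-bet) marks Th1 cells, Gata3 marks Th2 cells, Foxp3 marks regulatory T cells and Bcl6 marks follicular helper T cells. Maf (c-Maf), Batf and Eomes act in several of these lineages.

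Bulk mRNA was sequenced from distal colon segments of 22 mice, with 1 library per mouse. The controls were 8 C57BL/6 mice aged 14 weeks (4 males and 4 females). The Winnie group held 7 mice aged 14 weeks (3 males and 4 females), which carry a missense mutation of Muc2, the gene of the main secreted mucin of goblet cells. The Winnie-Prolapse group held 7 Winnie mice with rectal prolapse aged 18 weeks (4 males and 3 females), so that prolapse and age cannot be told apart. The defect lies in the epithelium, the mice of the last group are defined by a complication of the disease, and no cells were sorted. The question was how the T helper lineage factors stood in colitis without and with prolapse.

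A naive CD4+ T cell commits to a lineage when cytokines switch on STAT proteins, which in turn raise a lineage factor that drives the cytokine genes of that lineage. T-bet drives Ifng, GATA3 drives Il4, Il5 and Il13, and FOXP3 maintains the suppressive programme of regulatory T cells. BATF, an AP-1 family factor that pairs with JUN proteins and IRF4, is needed for Th17 and follicular helper cells and opens chromatin in several effector lineages. None of these genes is restricted to T helper cells. NK cells and other innate lymphoid cells use Tbx21, Eomes and Gata3, squamous epithelium uses Gata3, germinal centre B cells use Bcl6, and macrophages use Maf.

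The libraries held 24.8 M to 36.3 M counts, and levels are given as CPM, the counts scaled by the library total. On that scale 3 counts corresponded to between 0.0825 and 0.121 CPM. Markers of colon epithelium were high in all groups, with summed levels from 11420 to 22180 CPM in the Winnie-Prolapse libraries and from 15400 to 20790 CPM in C57BL/6. The 18 pan T cell markers summed to 20.9 ± 11.9 CPM (SD, n = 8) in C57BL/6, 49.0 ± 20.8 CPM (n = 7) in Winnie and 68.1 ± 22.2 CPM (n = 7) in Winnie-Prolapse, and all 18 had a higher mean in both disease groups. The 15 markers of squamous epithelium summed to 6.72 to 50.8 CPM in C57BL/6, 10.3 to 125 CPM in Winnie, and 109 to 3896 CPM in Winnie-Prolapse. Smooth muscle markers went the other way, from 9567 ± 1918 CPM in C57BL/6 to 2507 ± 877 CPM in Winnie-Prolapse. Winnie-Prolapse replicate 6 stood apart, with 179600 CPM in milk protein genes, which lowers the CPM of every other gene of that library, against at most 54.2 CPM in any other library. In bulk tissue, fewer or more cells of a type and less or more RNA per cell cannot be told apart, which holds for every level below.

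Promoter sequence was looked at because STAT proteins act upstream of these factors. The 250 bases before annotated transcription starts were read from RefSeq on GRCm38.p6 for 6 of the 7 genes. Maf was not matched. The sequences of Bcl6 and of the second Foxp3 start are shown, since they alone among the promoters read held the STAT motif TTCNNNGAA, which is its own reverse complement. The motif was found in 7.02% of 32851 promoters of the same length. All are 5′ to 3′ on the strand of the gene, with motif matches in capitals. They lie at chr16:23988853-23989102 and chr16:23981284-23981533 on the minus strand and at chrX:7580233-7580482 on the plus strand.
Bcl6 start 1: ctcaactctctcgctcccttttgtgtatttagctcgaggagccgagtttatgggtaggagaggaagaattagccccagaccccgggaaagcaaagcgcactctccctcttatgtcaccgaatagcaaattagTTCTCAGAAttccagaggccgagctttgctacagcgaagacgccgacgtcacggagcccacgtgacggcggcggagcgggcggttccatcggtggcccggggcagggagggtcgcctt
Bcl6 start 2: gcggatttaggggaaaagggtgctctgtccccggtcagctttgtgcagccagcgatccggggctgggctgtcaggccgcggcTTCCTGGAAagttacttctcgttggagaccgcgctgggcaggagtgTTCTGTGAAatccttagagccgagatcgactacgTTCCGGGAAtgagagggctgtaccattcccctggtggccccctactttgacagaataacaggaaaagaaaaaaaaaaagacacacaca
Foxp3 start 2: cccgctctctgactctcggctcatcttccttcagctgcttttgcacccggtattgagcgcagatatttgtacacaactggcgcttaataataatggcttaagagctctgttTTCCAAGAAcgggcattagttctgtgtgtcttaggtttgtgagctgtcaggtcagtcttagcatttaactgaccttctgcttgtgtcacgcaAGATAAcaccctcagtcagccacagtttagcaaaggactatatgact

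The first Bcl6 start held 1 match, TTCTCAGAA, at 118 bases before the start. The second held 3 matches, TTCCTGGAA at 168, TTCTGTGAA at 122 and TTCCGGGAA at 88 bases before the start. In the Foxp3 sequence TTCCAAGAA began 139 bases before the start, and a GATA motif (AGATAA, or TTATCT on the other strand; present in 9.99% of promoters) began 47 bases before it. The Batf promoter held a GATA motif on the opposite strand, 245 bases before the start. The Eomes promoter held an IRF motif (GAAANNGAA; present in 7.13% of promoters) 154 bases before the start. The Tbx21 and Gata3 promoters and the first Foxp3 start held no match to these motifs, nor to the AP-1 motif TGANTCA, the T-box motif TCACACC or the forkhead motif TGTTTAC, which were present in 6.75%, 3.33% and 3.17% of promoters. All motifs were searched on both strands. A match describes letters and does not show a bound site.

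The factors differed widely in their level. On the scale of CPM per kilobase of exon, which allows genes to be compared, the C57BL/6 means ran from Maf (4.64 ± 0.746) through Bcl6 (1.92 ± 0.482), Batf (0.323 ± 0.1002), Gata3 (0.223 ± 0.113), Tbx21 (0.0811 ± 0.0511) and Foxp3 (0.0612 ± 0.0556) to Eomes (0.0237 ± 0.0221; SD, n = 8). Maf and Bcl6 did not overlap in their ranges over the 8 libraries, nor did Bcl6 and Batf, whereas each gene from Batf to Eomes overlapped with its neighbour in the order. In Winnie-Prolapse the means were 3.88 ± 0.742 for Maf, 3.27 ± 0.861 for Bcl6, 3.23 ± 2.28 for Gata3, 1.14 ± 0.287 for Batf, 0.366 ± 0.182 for Foxp3, 0.353 ± 0.176 for Tbx21 and 0.0589 ± 0.0465 for Eomes (SD, n = 7). Here Gata3 stood beside Bcl6 and Maf, with overlapping ranges, and above Batf in mean, though those ranges overlapped too.

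**Figure D1:**
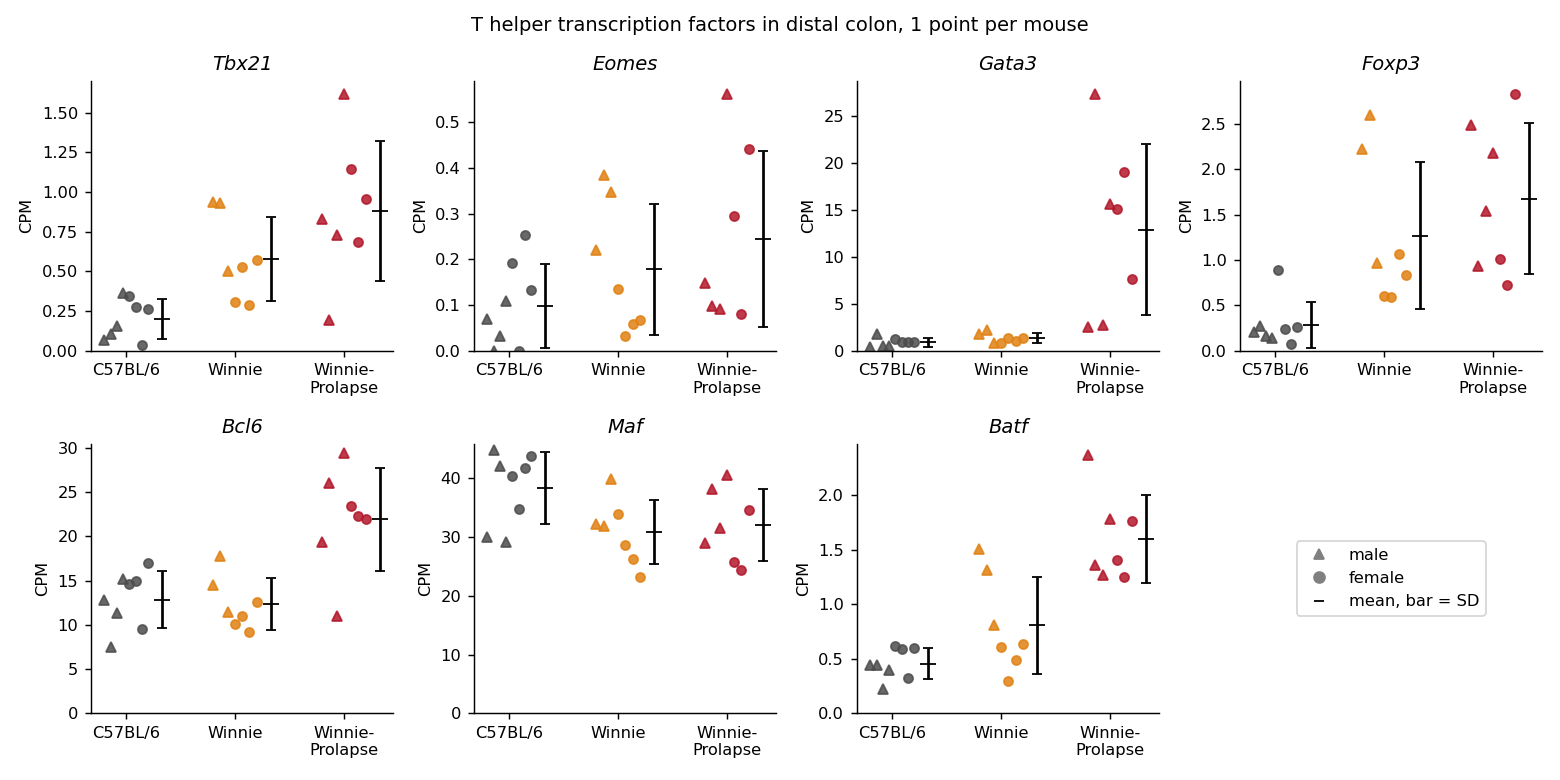
Level of each factor in CPM (linear axis) in every library by group; triangles are males and circles females, and the bar beside each group gives the mean and SD. Gata3 in Winnie-Prolapse spans 2.54 to 27.3 CPM, above every library of the other groups, while Maf overlaps among all 3 groups.

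Most of the factors were higher in prolapse. Calls needed an adjusted p under 0.001, adjusted over all genes tested, together with a difference of 1.5-fold or more. The methods of the study state these limits for edgeR, without naming which of its tests was used. The study compared 6 Winnie with 8 C57BL/6 mice, whereas 7 Winnie libraries entered here, so the calls are not those of the study. In Winnie-Prolapse against C57BL/6, 4 of the 6 factors with enough counts to be tested rose (Gata3, Foxp3, Tbx21 and Batf) and none fell. Of 17397 genes tested, 9.84% were called higher and 8.47% lower. At an adjusted p under 0.05 with the same fold limit 5 of the 6 were higher, Bcl6 being added, against 16.7% of genes higher and 17.7% lower. The median log2 fold change of the 6 factors was 2.04, and that of all genes tested was -0.01. Tbx21, Foxp3 and Batf reached the minimum of the filter in 2, 1 and 6 of the 8 C57BL/6 libraries, where 7 were needed, and so entered the test through the disease libraries. The counts and medians are therefore descriptions.

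In Winnie against C57BL/6 no factor was called by edgeR, where 0.0925% of 17289 genes were called in either direction. At an unadjusted p under 0.05 there were 4 factors, beside 39.9% of genes. DESeq2 called 1 factor, Foxp3, and 6.43% of the 19628 genes it tested. At an adjusted p under 0.05 with 1.5-fold, Foxp3, Tbx21 and Batf were higher, beside 7.42% of genes. The median log2 fold change was 0.80 for the factors and -0.01 for all genes. Foxp3, Tbx21 and Batf again entered the test through the disease libraries, so this count and median are descriptions too.

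In Winnie-Prolapse against Winnie the call rule took none of the factors and 0% of 17041 genes, although 4743 genes (27.8%) and 3 of the factors had an unadjusted p under 0.05. DESeq2 called 2 factors and 3.55% of the 19180 genes it tested. Gata3 and Bcl6 were higher at an adjusted p under 0.05 with 1.5-fold, beside 4.27% of genes. The comparisons share libraries and are given side by side below for that reason.

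**Figure D2:**
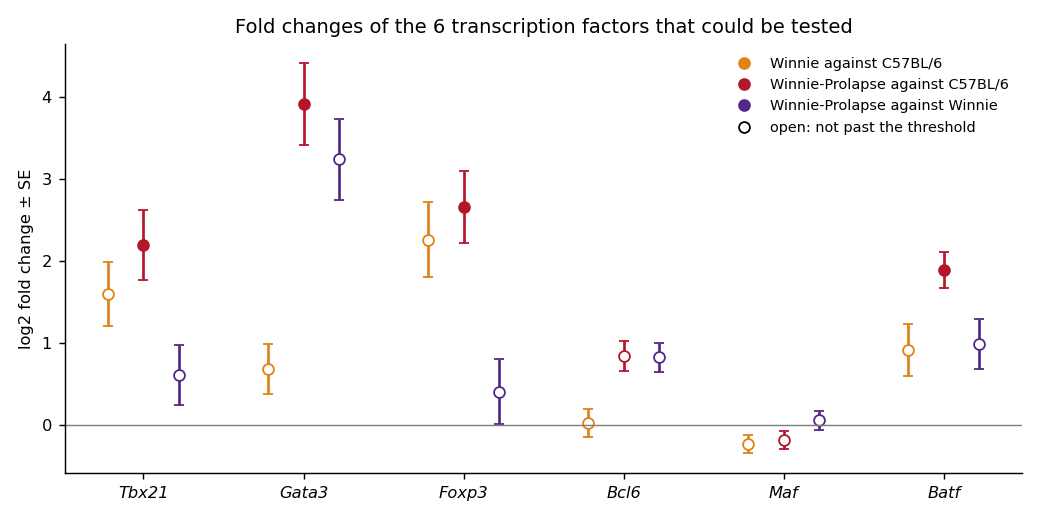
The log2 fold change (vertical axis, bars are SE) of the 6 factors that could be tested, in the 3 comparisons; filled points passed an adjusted p under 0.001 with 1.5-fold. Filled points occur in Winnie-Prolapse against C57BL/6 alone, for Tbx21, Gata3, Foxp3 and Batf.

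Tbx21, the Th1 factor, lies on chromosome 11 from 97098071 to 97115331 on the minus strand (ENSMUSG00000001444; GRCm38). In C57BL/6 its level ran from 0.0362 CPM through a median of 0.212 to 0.361 CPM. In Winnie the lowest, median and highest levels were 0.288, 0.525 and 0.935 CPM. In Winnie-Prolapse they were 0.194, 0.829 and 1.62 CPM. Above every control lay 5 of 7 Winnie and 6 of 7 Winnie-Prolapse libraries, and the exception in prolapse was replicate 2. These levels rest on few reads, with 1 to 10 counts in the C57BL/6 libraries and 6 to 49 in Winnie-Prolapse.

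Tbx21 rose in Winnie-Prolapse against C57BL/6 by 2.20 ± 0.43 on the log2 scale (SE; adjusted p = 0.000585). Against C57BL/6 the change in Winnie was 1.60 ± 0.39 (adjusted p = 0.0109), higher at the wider limit. Winnie-Prolapse against Winnie gave 0.61 ± 0.37 (adjusted p = 0.302). Tbx21 entered both tests against C57BL/6 through the disease libraries, where it was higher, so those changes are descriptions. The call in prolapse was close to its limit. When each library was left out in turn, it held in 5 of 15 fits, with adjusted p from 9.65e-05 to 0.00176, and it was lost without C57BL/6 replicate 1, 2, 3, 6 or 8 or Winnie-Prolapse replicate 1, 4, 5, 6 or 7.

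Of 15 genes of a Th1 list, 14 were tested in Winnie-Prolapse against C57BL/6, with a median log2 fold change of 1.78. Calls were 10 higher and none lower, beside 9.84% and 8.47% of all genes. Of the 14, 5 entered the test through the disease libraries, Ifng among them. Of the 9 that passed the filter on the C57BL/6 libraries alone, 7 were called higher, with a median of 1.73. Ccl5, a chemokine that attracts T cells, rose by 3.23 ± 0.36 on the log2 scale (SE; adjusted p = 4.84e-06), and Runx3, a partner of T-bet, by 1.82 ± 0.33 (adjusted p = 0.000301). Ifngr1, a chain of the receptor for interferon gamma, stood at 350 ± 54.7 CPM (SD) in C57BL/6 and 241 ± 48.8 CPM in Winnie-Prolapse, a difference under the fold limit.

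Ifng itself, the effector cytokine of Th1 and NK cells, had 2 counts in all 8 C57BL/6 libraries together, at most 1 in a library. It had 143 counts over the Winnie libraries and 880 over the Winnie-Prolapse libraries. The ratio of CPM to C57BL/6 was 74.3 in Winnie (95% interval 20.2 to 620) and 474 in Winnie-Prolapse (131 to 3920). These intervals are exact binomial ones and cover counting error only. Single libraries weighed on both ratios, a check chosen after the data were seen. Without Winnie replicate 2, which held 63 of the 143 counts, the Winnie ratio was 48.5. Without C57BL/6 replicate 1 or 8, the libraries with 1 count each, it was 129, and the Winnie-Prolapse ratio was 825 or 822. Levels in Winnie-Prolapse ran from 1.39 to 10.2 CPM, the gene was called there (adjusted p = 2.55e-07), having entered the test through the prolapse libraries, and it was too low to test in Winnie against C57BL/6. Between Winnie-Prolapse and Winnie the log2 fold change was 2.75 ± 0.69 (SE; adjusted p = 0.0285). In Winnie against C57BL/6 none of the 11 Th1 genes tested were called by edgeR, and the median log2 fold change was 1.10. At an adjusted p under 0.05 with 1.5-fold 6 were higher, beside 7.42% of all genes. The 10 NK and cytotoxic cell markers summed to 3.34 CPM (1.46 to 5.21) in C57BL/6, 10.4 CPM (2.56 to 22.7) in Winnie and 15.8 CPM (11.9 to 20.5) in Winnie-Prolapse, and all 10 had a higher mean in both disease groups. Gzmk of that list was at 0 in 5 of 8 C57BL/6 libraries. Their part in the Tbx21 and Ifng values was not tested.

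Eomes, the T-box factor of NK cells and memory CD8+ T cells, lies on chromosome 9 from 118478212 to 118486132 on the plus strand (ENSMUSG00000032446). It had 0 to 7 counts per library in C57BL/6, 1 to 12 in Winnie and 2 to 17 in Winnie-Prolapse, and did not pass the filter on low counts in any comparison. Means were 0.0984 ± 0.0918 CPM (SD, n = 8), 0.178 ± 0.143 CPM (n = 7) and 0.245 ± 0.193 CPM (n = 7). The groups overlapped, with 2 of 7 Winnie and 3 of 7 Winnie-Prolapse libraries above all controls. Without the filter the log2 fold change in Winnie-Prolapse against C57BL/6 was 1.35 (edgeR, adjusted p = 0.101). With DESeq2 it was 1.39 (adjusted p = 0.0781). Neither passed the adjustment, and both had an unadjusted p under 0.05.

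Gata3, the Th2 factor, lies on chromosome 2 from 9857078 to 9890034 on the minus strand (ENSMUSG00000015619). It had the largest fold change of the 6 factors tested in prolapse. Its lowest, median and highest levels were 0.376, 0.899 and 1.74 CPM in C57BL/6 and 0.810, 1.31 and 2.21 CPM in Winnie. In Winnie-Prolapse they were 2.54, 15.1 and 27.3 CPM. Every Winnie-Prolapse library lay above every library of both other groups. Among genes tested, 6.5% were without overlap and higher in Winnie-Prolapse than in C57BL/6, and 0.411% were so against Winnie.

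In Winnie-Prolapse against C57BL/6 the log2 fold change of Gata3 was 3.92 ± 0.50 (SE; adjusted p = 1.59e-05), a call kept whichever of the 15 libraries was omitted. Against Winnie it was 3.24 ± 0.49 (adjusted p = 0.00787), under the wider limit alone. In Winnie against C57BL/6 it was 0.68 ± 0.31 (adjusted p = 0.112), and 2 of 7 Winnie libraries lay above all controls.

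The Winnie-Prolapse libraries were far apart in Gata3, and those lowest in it were also lowest in squamous epithelial markers. Replicates 1 and 3 had 2.54 and 2.78 CPM of Gata3, and their squamous marker sums were 109 and 118 CPM, within the 10.3 to 125 CPM range of Winnie. Most of each of those sums was 1 gene, Sprr1a, which was at 102 CPM or more in every Winnie-Prolapse library. Gata3 in replicates 1 and 3 still exceeded the highest Winnie value of 2.21 CPM. Replicates 2, 4, 5, 6 and 7 had Gata3 at 27.3, 15.6, 15.1, 18.98 and 7.62 CPM, and squamous sums of 3176, 2686, 553, 831 and 3896 CPM. The order of the 5 by one measure was not their order by the other, since replicate 7 was highest in squamous markers and lowest in Gata3. Replicate 6 is the library set apart above by its milk protein genes, so its tissue make-up differed from that of the others. All 15 squamous markers had a higher mean in Winnie-Prolapse than in C57BL/6. The 8 that could be tested were all called higher, beside 9.84% of all genes, and 4 of them passed the filter on the controls alone. Krt14, a keratin of the basal layer, ran from 0.847 to 1107 CPM in Winnie-Prolapse, and Ivl and Sprr1b, genes of the cornified layer, were at 0 in all 8 C57BL/6 libraries. The part of squamous tissue in the Gata3 values was not tested, nor was that of the tissue with milk protein genes in replicate 6.

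**Figure D3:**
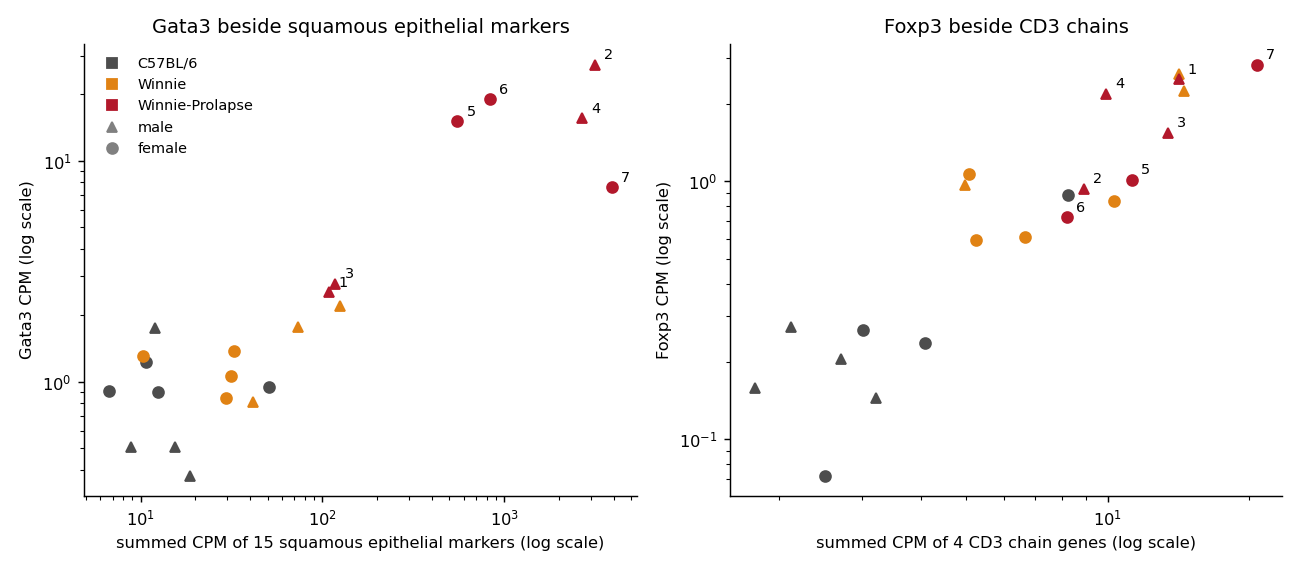
Each point is a library, with both axes on log scales; left, Gata3 in CPM against the summed CPM of 15 squamous epithelial markers, and right, Foxp3 in CPM against the summed CPM of the 4 CD3 chain genes, with Winnie-Prolapse libraries numbered by replicate. Winnie-Prolapse replicates 1 and 3 sit beside Winnie in squamous markers and Gata3, and the other 5 sit at 7.62 to 27.3 CPM of Gata3.

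The cytokines of Th2 cells were at the limit of detection in every group. Il4 had 5 counts over the 8 C57BL/6 libraries, 3 over the Winnie libraries and 4 over the Winnie-Prolapse libraries, Il5 had 4, 5 and 3, and Il13 had 2, 8 and 5. Il9 was at 0 in every library. With at most 2 counts in any library a difference in Il4, Il5 or Il13 was not detectable at this depth.

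Of 15 Th2 list genes 8 were tested in Winnie-Prolapse against C57BL/6, with a median log2 fold change of 1.5. Calls were 3 higher and none lower, beside 9.84% and 8.47% of all genes. In all 9 of the 15 had a higher mean in prolapse. With 1.5-fold and an adjusted p under 0.05, 5 were higher and 1 lower, beside 16.7% and 17.7% of all genes. Of the 7 that passed the filter on the controls alone, 2 were called higher. Il4ra, the receptor chain shared by IL-4 and IL-13, stood at 23.1 ± 7.94 CPM (SD, n = 8) in C57BL/6, 39.6 ± 20.1 CPM (n = 7) in Winnie and 112 ± 32.7 CPM (n = 7) in Winnie-Prolapse. Its log2 fold change in prolapse was 2.35 ± 0.22 (SE; adjusted p = 1.21e-06). Il1rl1, the receptor for IL-33, ran from 0.540 to 3.01 CPM in C57BL/6, 1.25 to 49.0 CPM in Winnie and 22.3 to 178 CPM in Winnie-Prolapse (log2 fold change 5.84 ± 0.48, adjusted p = 3.37e-07). The third, Ccr4, a homing receptor, gave 2.01 ± 0.38 (adjusted p = 0.000434), entered the test through the prolapse libraries and was named after its values were seen. Stat6, the signal carrier of the IL-4 receptor, stood at 105 ± 18.8 CPM in C57BL/6 and 111 ± 18.97 CPM in Winnie-Prolapse (log2 fold change 0.16 ± 0.12, adjusted p = 0.277). Areg, an epidermal growth factor family ligand, gave 1.56 ± 0.35 (adjusted p = 0.00171), past the wider limit alone. The lower one was Il17rb, a receptor for IL-25, at 3.25 ± 1.13 CPM (SD, n = 8) in C57BL/6 and 1.71 ± 0.872 CPM (n = 7) in Winnie-Prolapse (log2 fold change -0.83 ± 0.32, SE; adjusted p = 0.0366). In Winnie against C57BL/6 none of 8 Th2 genes was called by edgeR, and the median was 0.46. At an adjusted p under 0.05 with 1.5-fold 3 were higher and 1 lower (Il33, at -0.90 ± 0.27), beside 7.42% and 8.53% of all genes. Il33 stood at 5.84 ± 1.44 CPM (SD, n = 8) in C57BL/6 and 3.01 ± 1.68 CPM (n = 7) in Winnie. In Winnie-Prolapse its mean was higher than in both, at 14.5 ± 8.27 CPM (n = 7). Il17rb and Il33 were named after their values were seen.

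Foxp3, the regulatory T cell factor, lies on the X chromosome from 7573644 to 7595245 on the plus strand (ENSMUSG00000039521). Its exons overlap those of Ccdc22, Ppp1r3f and Flicr in the annotation, and the strand setting of the counting was not given, so reads in the shared parts cannot be assigned with certainty. The lowest, median and highest levels were 0.0725, 0.221 and 0.887 CPM in C57BL/6, 0.591, 0.964 and 2.60 CPM in Winnie and 0.725, 1.54 and 2.83 CPM in Winnie-Prolapse. The control at 0.887 CPM, replicate 5, lay far above the next control at 0.273 CPM. It also had the most CD3 chain transcripts of the controls. Above all controls were 4 of 7 Winnie and 6 of 7 Winnie-Prolapse libraries.

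The log2 fold change of Foxp3 in Winnie against C57BL/6 was 2.26 ± 0.46 (SE; adjusted p = 0.00480). It was the largest among the 6 factors tested in that comparison, and passed the wider limit whichever of the 15 libraries was omitted. In Winnie-Prolapse against C57BL/6 it was 2.66 ± 0.43 (adjusted p = 0.000134), and it was called whichever library was omitted. Foxp3 entered both tests against C57BL/6 through the disease libraries, where it was higher, so those changes are descriptions. Winnie-Prolapse against Winnie gave 0.41 ± 0.39 (adjusted p = 0.534), with overlapping groups.

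All 16 genes of the regulatory T cell list were tested in Winnie-Prolapse against C57BL/6, with a median log2 fold change of 1.10. Of these 6 were called higher and none lower, beside 9.84% and 8.47% of all genes. Of the 12 that passed the filter on the controls alone, 2 were called higher, with a median of 0.74. In Winnie against C57BL/6 14 were tested, with a median of 0.65, and 1 was called higher, beside 0.0925% of all genes in either direction. That gene was Ctla4, an inhibitory receptor, named after its values were seen, with 0.211 ± 0.0891 CPM (SD, n = 8) in C57BL/6, 2.89 ± 1.55 CPM (n = 7) in Winnie and 4.72 ± 2.22 CPM (n = 7) in Winnie-Prolapse. Ctla4 rose in Winnie by 3.86 ± 0.37 on the log2 scale (SE; adjusted p = 0.000223), but 0 of 8 controls reached the minimum of the filter, so it entered this test through the Winnie libraries. Il2ra, the high-affinity chain of the IL-2 receptor, rose in Winnie-Prolapse by 2.56 ± 0.40 (adjusted p = 8.44e-05), and Il10, an anti-inflammatory cytokine, by 2.66 ± 0.39 (adjusted p = 5.31e-05). The minimum of the filter was reached by 6 of 8 controls in Il2ra and 0 of 8 in Il10, so both entered the test through the prolapse libraries. Tgfb1, a cytokine that induces Foxp3, rose by 1.46 ± 0.24 (adjusted p = 0.000145). Ikzf2 (Helios) gave 0.71 ± 0.20 (adjusted p = 0.00774), Nrp1 0.33 ± 0.11 (adjusted p = 0.0155) and Stat5b 0.27 ± 0.13 (adjusted p = 0.0944), and none of these 3 was called.

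Bcl6, a repressor that defines follicular helper T cells and germinal centre B cells, lies on chromosome 16 from 23965052 to 23988852 on the minus strand (ENSMUSG00000022508). Its lowest, median and highest levels were 7.45, 13.7 and 17.0 CPM in C57BL/6, 9.23, 11.5 and 17.9 CPM in Winnie and 11.0, 22.3 and 29.4 CPM in Winnie-Prolapse. Winnie overlapped the controls almost throughout, with 1 of 7 libraries above them. In Winnie-Prolapse 6 of 7 libraries were above all controls, the exception being replicate 3. The log2 fold change was 0.02 ± 0.17 (SE; adjusted p = 0.930) in Winnie, with a sign that changed without TMM scaling, and 0.84 ± 0.19 (adjusted p = 0.00143) in Winnie-Prolapse against C57BL/6, and 0.82 ± 0.17 (adjusted p = 0.0180) in Winnie-Prolapse against Winnie. Bcl6 in prolapse was thus just outside the call, and without Winnie-Prolapse replicate 3 it passed, with an adjusted p of 0.000201.

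Of 16 follicular helper and germinal centre genes, 12 had a higher mean in each disease group than in C57BL/6. In Winnie-Prolapse against C57BL/6 12 were tested, and 2 were called higher and 1 lower, beside 9.84% and 8.47% of all genes, with a median log2 fold change of 0.66. At an adjusted p under 0.05 with 1.5-fold, 5 were higher and 1 lower, beside 16.7% and 17.7% of all genes. Prdm1, whose product BLIMP1 represses Bcl6 and drives plasma cell and effector fates, stood at 5.59 ± 2.06 CPM (SD, n = 8) in C57BL/6, 21.7 ± 7.32 CPM (n = 7) in Winnie and 36.5 ± 10.9 CPM (n = 7) in Winnie-Prolapse. It was called in both, with log2 fold changes of 2.04 ± 0.26 (SE; adjusted p = 0.000937) and 2.80 ± 0.24 (adjusted p = 4.83e-07), and was the only gene of the list called in Winnie. The other gene called higher in prolapse was Icos, a costimulatory receptor of activated T cells (2.75 ± 0.45, adjusted p = 0.000133; 6 of 8 controls reached the filter minimum), and the lower one was Ascl2, also a factor of intestinal stem cells (-1.496 ± 0.22, adjusted p = 6.21e-05). Both were named after their values were seen. Cxcr5, which takes follicular helper cells to B cell follicles, was 5.13 ± 5.48 CPM in C57BL/6 and 4.798 ± 3.65 CPM in Winnie-Prolapse (log2 fold change 0.01 ± 0.63, adjusted p = 0.994). Cxcl13, its ligand, gave 0.74 ± 0.50 (adjusted p = 0.224). None of 10 B cell markers was called by edgeR in either comparison with C57BL/6, and their sum ranged from 4.38 to 335 CPM among the controls alone and from 34.3 to 210 CPM in Winnie-Prolapse. Il21, the follicular helper cytokine, had 8 counts over the C57BL/6 libraries, 23 over the Winnie libraries and 59 over the Winnie-Prolapse libraries, and was not tested against C57BL/6.

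Maf lies on chromosome 8 from 115682942 to 115707794 on the minus strand (ENSMUSG00000055435). It was the one factor with a lower mean in both disease groups than in C57BL/6. The lowest, median and highest levels were 29.2, 40.9 and 44.7 CPM in C57BL/6, 23.2, 31.9 and 39.8 CPM in Winnie and 24.3, 31.5 and 40.5 CPM in Winnie-Prolapse. Below all controls were 3 of 7 libraries of each disease group. The log2 fold changes were -0.24 ± 0.11 (SE; adjusted p = 0.132) and -0.19 ± 0.11 (adjusted p = 0.184) against C57BL/6, and 0.05 ± 0.11 (adjusted p = 0.793) between the disease groups, and none was called. Of 12 macrophage markers, cells that also use Maf, 8 were called higher and 1 lower in Winnie-Prolapse, beside 9.84% and 8.47% of all genes. The markers summed to 299 (185 to 383) CPM in C57BL/6 and 549 (327 to 850) CPM in Winnie-Prolapse. The part of macrophages in the Maf level was not tested.

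Batf lies on chromosome 12 from 85686669 to 85709087 on the plus strand (ENSMUSG00000034266). The lowest, median and highest levels were 0.222, 0.444 and 0.617 CPM in C57BL/6, 0.295, 0.636 and 1.51 CPM in Winnie and 1.25, 1.41 and 2.37 CPM in Winnie-Prolapse. Every Winnie-Prolapse library exceeded every control, as did 4 of 7 Winnie libraries, and 6.5% of genes tested were likewise without overlap in prolapse. Batf rose in Winnie-Prolapse against C57BL/6 by 1.89 ± 0.22 on the log2 scale (SE; adjusted p = 7.23e-06), a call kept whichever of the 15 libraries was omitted. In Winnie it was 0.91 ± 0.32 (adjusted p = 0.0465), and this passed the wider limit in 4 of 15 fits that each omitted 1 library, with adjusted p from 0.0108 to 0.131. Batf entered both tests against C57BL/6 through the disease libraries, where it was higher, so those changes are descriptions. Winnie-Prolapse against Winnie gave 0.99 ± 0.30 (adjusted p = 0.0553), close to the wider limit and on either side of it under other settings.

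Partners of BATF were tested as 17 genes in Winnie-Prolapse against C57BL/6. Of these 5 were called higher and 1 lower, beside 9.84% and 8.47% of all genes, with a median log2 fold change of 0.51. Irf4, with which BATF binds DNA, stood at 4.35 ± 2.61 CPM (SD, n = 8) in C57BL/6, 9.96 ± 3.97 CPM (n = 7) in Winnie and 12.7 ± 4.02 CPM (n = 7) in Winnie-Prolapse, and rose in prolapse by 1.63 ± 0.33 on the log2 scale (SE; adjusted p = 0.000818). The other 4, named after their values were seen, were Nfil3, Batf2, Batf3 and Irf8, at 2.20, 1.64, 1.26 and 1.15, and of these Batf3 passed the filter through the prolapse libraries. The lower one was the AP-1 factor Fosl2 (-0.69 ± 0.14, adjusted p = 0.000883). Of the most abundant AP-1 genes beside Fosl2, Jund was at -0.41 ± 0.18 (adjusted p = 0.0605) and Junb was at 0.49 ± 0.20 (adjusted p = 0.0455). Fos stood at 151 ± 52.9 CPM in C57BL/6, 485 ± 321 CPM in Winnie and 214 ± 69.9 CPM in Winnie-Prolapse. In Winnie against C57BL/6 none of the 17 was called by edgeR, and the median was 0.45. At an adjusted p under 0.05 with 1.5-fold 7 were higher, beside 7.42% of all genes.

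Of 15 Th17 list genes, 13 had a higher mean in Winnie-Prolapse than in C57BL/6, but 7 were too low to test. Of the 8 tested 1 was called higher, beside the 9.84% of all genes. It was Stat3 (log2 fold change 0.65 ± 0.08, SE; adjusted p = 1.46e-05), which carries the signal of IL-6 and IL-23. The median log2 fold change of the list was 0.53 in Winnie-Prolapse and 0.08 in Winnie, where none of 7 was called by edgeR and none was higher or lower at an adjusted p under 0.05 with 1.5-fold. Ahr, a receptor for tryptophan metabolites, gave -0.07 ± 0.09 (adjusted p = 0.528) in prolapse and Il1r1 gave 0.65 ± 0.18 (adjusted p = 0.00786). Il17a had 2 counts over the C57BL/6 libraries, 34 over the Winnie libraries and 108 over the Winnie-Prolapse libraries, a ratio of CPM to C57BL/6 of 58.2 in prolapse (95% interval 15.7 to 486). Without C57BL/6 replicate 5 or 6, which held 1 count each, this ratio was 103, and 18 of the 34 Winnie counts lay in 1 library. It could be tested between the disease groups alone, where the log2 fold change was 1.78 ± 0.62 (adjusted p = 0.0796). Il22 had 7, 9 and 40 counts over the same groups, of which single libraries held up to 4, 5 and 17.

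**Figure D4:**
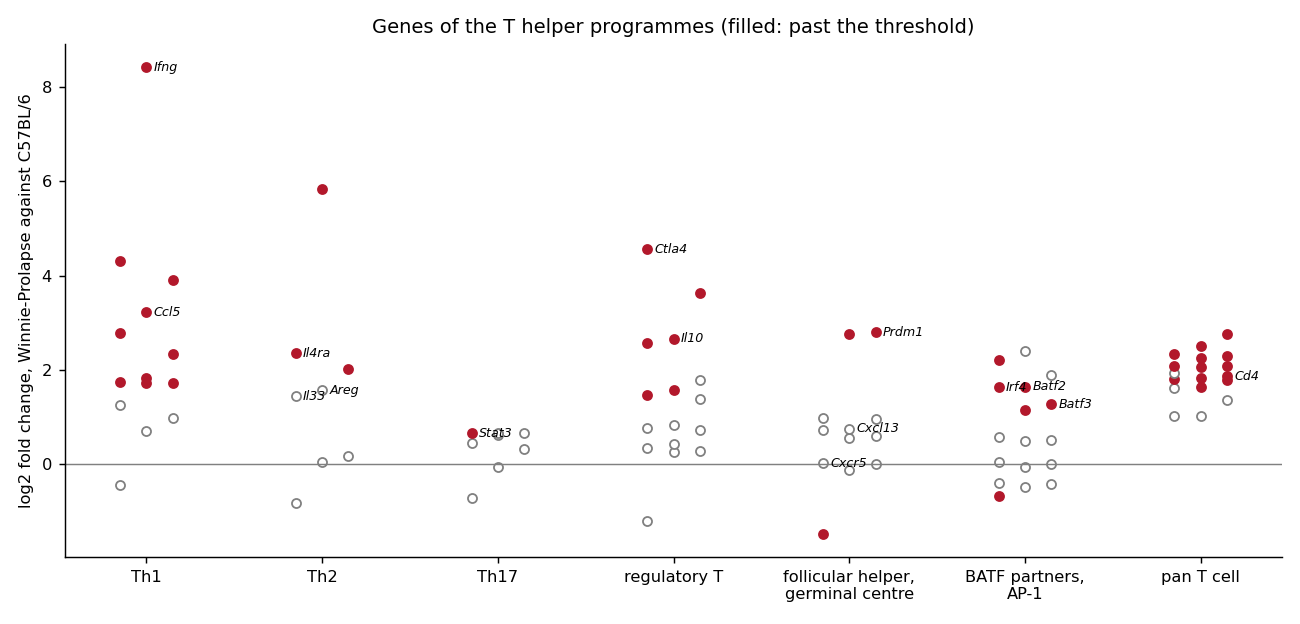
Log2 fold change in Winnie-Prolapse against C57BL/6 (vertical axis) of each tested gene of the T helper lists and of pan T cell markers, 1 point per gene; filled points passed an adjusted p under 0.001 with 1.5-fold, and the fitted value of Ifng, which had 2 counts in the controls, depends on the prior count. In the Th1 list 10 of 14 points are filled, and in the Th17 list 1 of 8.

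The disease groups had more T cell RNA, and each factor was therefore also set against it. The genes of the CD3 chains (Cd3d, Cd3e, Cd3g and Cd247) summed to 3.45 CPM in C57BL/6 (1.78 to 8.22), 8.70 CPM in Winnie (4.97 to 14.5) and 12.4 CPM in Winnie-Prolapse (8.18 to 20.8). As a percentage of that sum in the same library, Tbx21 was 6.09 ± 3.41% (SD, n = 8) in C57BL/6, 6.98 ± 2.19% (n = 7) in Winnie and 7.56 ± 4.65% (n = 7) in Winnie-Prolapse. Batf was 14.6 ± 4.36%, 9.51 ± 3.49% and 13.7 ± 3.63% in the same groups. On this scale the groups of both genes overlapped, and the mean of Batf was lower in Winnie than in C57BL/6.

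Foxp3 was 7.77 ± 3.30% of the CD3 chain sum in the controls, against 14.7 ± 5.18% in Winnie and 13.3 ± 4.88% in Winnie-Prolapse. Its ranges were 2.90 to 12.9%, 8.14 to 21.0% and 8.87 to 22%, so that the controls overlapped both disease groups in part. Gata3 was 30.6 ± 22.5%, 16.6 ± 4.78% and 130 ± 112%. In Winnie-Prolapse replicates 1 and 3 it was 18.0% and 20.7%, within the range of the controls (13.9 to 82.3%), and in replicate 2 it was 307%. Bcl6 and Maf exceeded the CD3 sum in every C57BL/6 library, at 178 to 636% and 490 to 2359%, and had means of 199% and 281% in Winnie-Prolapse. These percentages are descriptions and were not tested.

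**Figure D5:**
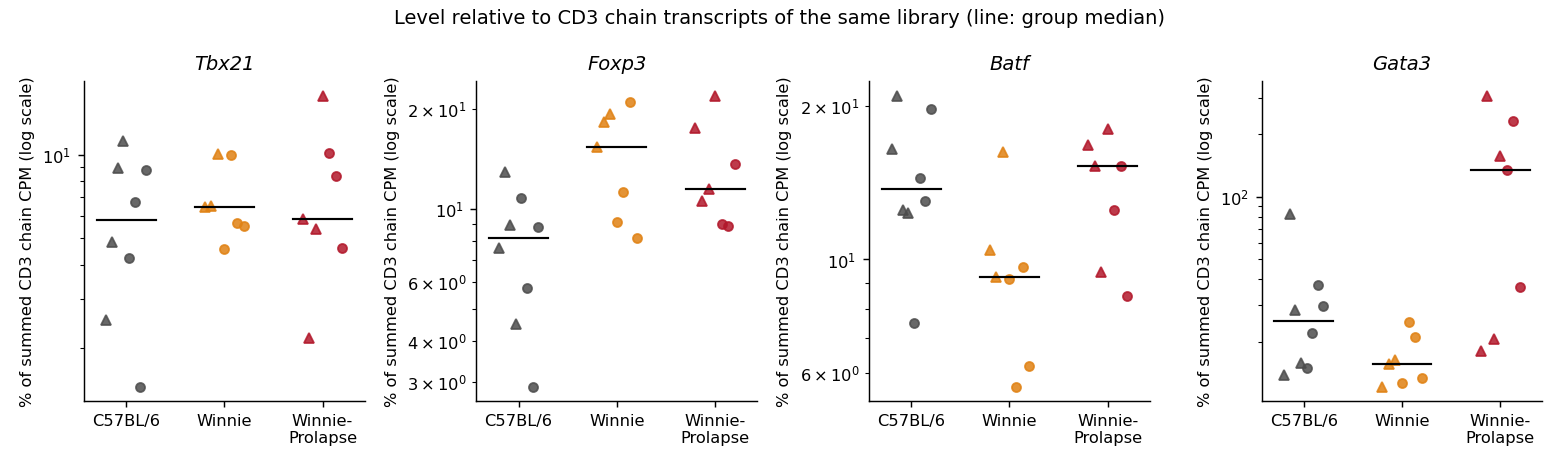
Tbx21, Foxp3, Batf and Gata3 as a percentage of the summed CPM of the 4 CD3 chain genes of the same library (log axes), 1 point per library, with lines at group medians. The medians of Tbx21 are 5.79, 6.45 and 5.86%, whereas Gata3 in Winnie-Prolapse runs from 18.0 to 307%.

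None of the 6 factors was called between males and females by edgeR or DESeq2 at an adjusted p under 0.05, where 0.0788% of 17769 genes were, and none had an unadjusted p under 0.05. Within Winnie the 3 males were higher than the 4 females in Batf, at 1.21 ± 0.363 CPM against 0.507 ± 0.155 CPM (SD), with no overlap. The same held for Eomes, at 0.220 to 0.385 CPM against 0.0328 to 0.135 CPM, and for 14.6% of the 17289 genes tested in Winnie against C57BL/6. Foxp3 was 1.93 ± 0.856 CPM in these males and 0.775 ± 0.223 CPM in the females, and the ranges overlapped. The Winnie females carry consecutive numbers in their labels and the males do not, and what the numbers stand for is not stated. Sex and a shared origin cannot be told apart within Winnie, which also holds for the interactions and single-sex fits below. The test of whether the Winnie difference depended on sex gave an interaction of 1.66 ± 0.48 on the log2 scale for Batf (SE; edgeR adjusted p = 0.221) and 2.08 ± 0.84 for Foxp3 (edgeR adjusted p = 0.306). Both had an unadjusted p under 0.05, and neither passed the adjustment. In females alone, Winnie against C57BL/6 gave 0.05 ± 0.35 for Batf (adjusted p = 0.955) and 1.22 ± 0.60 for Foxp3 (adjusted p = 0.303), so that neither passed the wider limit there. In males alone the values were 1.72 ± 0.36 (adjusted p = 0.00947) and 3.32 ± 0.43 (adjusted p = 0.00181), and Tbx21 gave 2.23 ± 0.51 (adjusted p = 0.0127). Tbx21 was too low to test in females alone. The interactions were called by edgeR for 0% of genes in Winnie and 0% in Winnie-Prolapse, and DESeq2 called none of the factors, although 2418 genes had an unadjusted p under 0.05 for Winnie and 883 for Winnie-Prolapse.

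Genes that varied with each factor were found after each group mean was subtracted, over 22 libraries and 15491 genes with a mean of at least 1 CPM, from log2 CPM. The points share library depth and tissue make-up, and the values are descriptions. Foxp3 ran closest to Ms4a4b (Pearson r = 0.887, Spearman rho = 0.814), Cd3e (r = 0.856) and Trac (r = 0.839), the last a T cell receptor chain. Gata3 ran closest to Defb1 (r = 0.860, rho = 0.869), an epithelial defensin, Prom2 (r = 0.833) and Tfap2a (r = 0.831), a factor of surface epithelium. Without the 2 libraries farthest from the median, r was 0.825 for Defb1, 0.663 for Prom2 and 0.656 for Tfap2a. Tbx21 ran with Nfkbie (r = 0.838), Cyth4 (r = 0.836) and Ncf1 (r = 0.834), a subunit of the phagocyte oxidase. Batf ran with Cd244 (r = 0.856), Cd86 (r = 0.841) and Serpina3g (r = 0.839). Bcl6 was closest to Sema4d (r = 0.802), Rassf5 (r = 0.797) and Tmem173 (r = 0.796), which encodes STING. Maf was closest to Gm20633 (r = 0.763), Snhg4 (r = 0.744) and Tet3 (r = 0.742). Eomes, at a few counts per library, was closest to Gpd2 (r = 0.866), Papd4 (r = 0.813) and Mtpn (r = 0.801).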

How the data were processed

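The deposited table holds raw read counts per gene, which the authors made from polyA RNA with stranded libraries, using the RNAsik pipeline on GRCm38. Tools named in the submitters' processing notes include STAR and featureCounts, and the strand setting and annotation release were not given in the sources used here. No library duplicated another (chi-square per degree of freedom of at least 28.83 for every pair within a group).

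Counts, 24.8 M to 36.3 M per library, entered edgeR 4.0.16 under R 4.3.3 (quasi-likelihood F test, TMM factors, filterByExpr, Benjamini-Hochberg adjustment), each comparison on its own 2 groups and the sex tests over 22 libraries. CPM are counts over the library total. Scripts were tested on simulated data. Alternatives used DESeq2 1.42.0, limma-voom (limma 3.58.1), other filters, scaling, dispersion, sexes and leaving out each library. The labels name no batch. Where libraries share an origin beyond the animal is not stated, so p-values measure the spread between these mice.

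The 7 factors and 14 gene lists (185 of 186 genes found) were chosen with earlier results of these data known. Named beside the 7 factors were the 4 most abundant tested genes of each T helper list, up to 3 of each marker list, signature cytokines and receptors, and the 3 genes most like each factor. Coordinates and exon lengths came from GENCODE M21. Some items are not reported here.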

Additional observations from a re-analysis of the deposited data

Results flagged for a closer look

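Among 42 sets of library values, made of each factor on 2 scales in 3 groups, 5 had a library far from the rest of its group by Dixon's criterion, where chance gives about 1 in 20. In C57BL/6 replicate 5, Foxp3 was 0.8872 CPM and the next library was at 0.2735 CPM. In C57BL/6 replicate 2, Gata3 was 82.26% of the CD3 chain sum and the next library was at 37.68%. Eomes was 10.14% of that sum in C57BL/6 replicate 7 (next 4.396%), 6.977% in Winnie replicate 3 (next 2.709%) and 5.667% in Winnie-Prolapse replicate 4 (next 2.616%), on at most 17 counts per library.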

How the results depend on the processing

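The number of factors called in Winnie against C57BL/6 was 0 in the reported fit, 3 at an adjusted p under 0.05 and 1 with DESeq2 (Foxp3, adjusted p = 4.31e-05). In Winnie-Prolapse against C57BL/6 it was 4 in the reported fit, 1 where at least 10 counts were required in every library (Tbx21, Foxp3 and Batf were then not tested), 0 with males alone and 1 with females alone (Gata3), the last 2 on fewer libraries. It was 3 to 5 when each library was left out. In Winnie-Prolapse against Winnie it was 0 in the reported fit, 2 at an adjusted p under 0.05, 2 with DESeq2 and 1 with all 3 groups in one fit (Gata3, adjusted p = 0.000566). Of 469 fold changes of the factors under alternatives, 429 kept their direction and side of the threshold, 19 fell short of it, 13 passed it and 8 changed sign, all of them in uncalled values. The reported fit read at the wider limit was counted as 1 of the alternatives, without a new fit. Of the 13, Tbx21, Foxp3 and Batf in Winnie passed in that way. So did Bcl6 in prolapse, and Gata3 and Bcl6 between the disease groups. The rest of the 13 passed the threshold itself under another setting. Bcl6 in Winnie against C57BL/6 was -0.0525 without TMM factors, -0.0232 with at least 10 counts in every library, -0.27 in females alone and -0.0637 to 0.0917 when each library was left out. Foxp3 in Winnie-Prolapse against Winnie was -0.10 in males alone. Tbx21 in prolapse missed the limit with limma-voom (adjusted p = 0.00203) and with no filter (0.00108), and Bcl6 met it with DESeq2 (5.24e-05) and with all 3 groups in one fit (0.000463). Foxp3 in Winnie-Prolapse against C57BL/6 had an adjusted p of 0.0580 with females alone. With females alone in Winnie against C57BL/6, Foxp3 (0.303) and Batf (0.955) missed the wider limit. Batf also missed it there with sex as a covariate (0.0566), limma-voom (0.0903), no filter (0.0692) and no TMM factors (0.0682). It met the limit with DESeq2 (0.0317), all 3 groups in one fit (0.0279), males alone (0.00947) and the robust (0.0473) and bias-adjusted (0.0435) edgeR fits. Of 462 counts of list genes called, 39 rose and 39 fell by over 1.5 times. The 14 log2 ratios of disease to C57BL/6 means relative to CD3 transcripts moved by under 1 SD with 18 T cell markers as the base. The cause of these shifts was not tested. Depth limited Eomes, Il4, Il5 and Il13. No paired analysis was possible because replicate numbers follow the sample order and pair no mice.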
